A study of Homo sapiens with 6 samples.

Results

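The genes described here are 52 genes of the machinery that stores transmitter in synaptic vesicles, releases it and recovers the vesicle membrane. They were chosen by their symbols from a list drawn up with earlier results of these data known, not by their measured values, and were matched to Ensembl identifiers. Of the 52, 50 had a row among the 22718 genes of the deposited tables, and UNC13C and CADPS2 had none. RNA sequencing compared 3 vehicle libraries with 3 panobinostat libraries, lettered A to C in each arm, and all 6 are labelled HT1197, a line from a human bladder carcinoma. Panobinostat is an inhibitor of histone deacetylases, the enzymes that remove acetyl groups from histones. Cells of both arms were grown in serum-supplemented medium and collected after 48 h. The vehicle arm, whose condition label reads untreated, received 1% DMSO by the treatment protocol, and the panobinostat arm received 2 times the line's IC50. The line is 1 established culture seeded in triplicate dishes, so p-values measure the spread between these dishes and not between donors or lines. The comparison asks how the drug changed transcript levels in cells treated in culture.

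In a neuron, filled vesicles dock at the active zone, are primed, and fuse with the plasma membrane when calcium enters. Fusion is driven by SNARE proteins on the vesicle and the plasma membrane, calcium is sensed by synaptotagmins and related proteins, and complexins bind the assembled SNARE bundle. Scaffold proteins such as RIMS, piccolo and bassoon hold the site together, and clathrin adaptors, endophilin, dynamin and synaptojanin retrieve the membrane afterwards. Neuroendocrine cells use many of the same proteins to release hormone from dense-core granules. Many neuronal genes carry a site for the repressor REST, which recruits histone deacetylases.

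Promoter stretches of 3 genes are shown because they hold the letters of an RE1 element, the site bound by REST, or of a CRE, the cyclic AMP response element, within the windows of genes that are described below. The windows run from 250 bases before to 50 bases after each RefSeq start on GRCh38.p14, and 41 of the 50 genes with a row had one. Capitals mark the motif, and the printed strand is that of the gene.
SYN1: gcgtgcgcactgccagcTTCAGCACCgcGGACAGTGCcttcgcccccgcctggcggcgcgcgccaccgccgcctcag
UNC13A: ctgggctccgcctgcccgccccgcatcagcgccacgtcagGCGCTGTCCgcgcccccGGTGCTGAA
SH3GL2: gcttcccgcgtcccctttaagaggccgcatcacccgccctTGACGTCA
The SYN1 stretch lies upstream of the gene at chrX:47620031-47620107 on the minus strand, from base -250 to base -174 counted from the start. The UNC13A stretch, at chr19:17688340-17688405 on the minus strand, runs from 51 bases before the start into base 15 of the transcript. The SH3GL2 stretch, at chr9:17579022-17579069 on the plus strand, ends at base 4 of the transcript. Windows of all RefSeq genes were searched on both strands. The left arm of the RE1, TTCAGCACC, was found in 132 of 35116 windows (0.376%), and the right arm, GGACAGNGC, in 815 (2.32%). Among the 61 windows of the vesicle release genes, those of SYN1 and UNC13A held both arms, and that of BSN held the right arm alone. Both arms in order on 1 strand, at any distance, were found in 6 windows in all (0.0171%). In SYN1 the arms are 2 bases apart, a spacing found in 3 windows in all (0.00854%). In UNC13A they lie on the opposite strand with 8 bases between them. The CRE, TGACGTCA, was found in 649 windows (1.85%), among them those of SH3GL2 and SYN1. These are matches of letters in a window and show no binding.

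The tables held 13417898 to 18186087 counts per library, and 3 counts corresponded to 0.161 to 0.216 CPM, counts scaled to the library total after TMM adjustment, the scale on which overlap of arms is judged. Levels are given below in FPKM as deposited, a unit defined per transcript length and library size, although how these values were computed was not stated. Changes are log2 fold changes with their standard errors from edgeR's quasi-likelihood test on the counts, and a gene rose or fell where its Benjamini-Hochberg adjusted p was 0.05 or less. Ratios of FPKM need not equal the fitted fold, which rests on TMM-adjusted counts. Most urothelial markers were low or absent in the vehicle libraries, against the label: of 21 urothelial markers 11 had a row, 9 of them were under 1 FPKM, 3 (UPK1B, FOXA1 and TP63) had no count, and only GATA3 reached 10 FPKM. Of 13 noradrenergic neuroblast markers, 12 were at 10 FPKM or more, HAND2 and CHGA among them. The exception, TH, had a vehicle mean of 0.0875 FPKM and was not tested. The libraries are therefore called the libraries labelled HT1197, and no other identity is given to them. The neuroblast markers summed to 1923 to 2149 FPKM in the vehicle libraries and 1602 to 1691 FPKM in the panobinostat libraries, and 9 of the 12 tested fell while 1 rose. Glial and Schwann markers (4 of 5 with a row, SOX10 without one) summed to 0.335 to 0.513 and then 1.69 to 2.04 FPKM. Fibroblast markers (5 of 5) went from 1.61 to 1.87 up to 47.1 to 49.2 FPKM, nearly all of it LUM. Endothelial markers (3 of 4) went from 0.105 to 0.154 up to 0.554 to 0.564 FPKM, and leukocyte markers (2 of 5) from 0.57 to 1.09 down to 0.193 to 0.525 FPKM. The part of any of these in the changes below was not tested. In bulk RNA, fewer cells of a type and less RNA per cell cannot be told apart.

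The vesicle release genes moved in both directions. Of the 48 tested, 20 rose, 14 fell and 14 did not pass the test. Across all 16084 genes tested, 33.7% rose and 31.5% fell (65.2% in either direction), and the median log2 fold change was 0.06 for the vesicle release genes and 0.01 for all genes. Genes of the calcium-sensing group mostly rose, with SYT1, the fast calcium sensor of release, 1.70-fold higher. Genes of the priming and active zone group mostly fell, with CADPS, a priming factor for dense-core granules, 4.67-fold lower. The libraries of the arms did not overlap in CPM for 35 of the 48, 21 higher and 14 lower after panobinostat, against 68.8% of all tested genes. A change of 2-fold or more was called for 11 that rose and 4 that fell, and for 16.8% and 5.27% of all tested genes. The 21 and the 11 include 5 genes, named next, that entered the test only through the panobinostat arm. Neither count is therefore read as a result.

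Of the genes that rose, 5 (SYT13, SLC17A7, SLC32A1, NRXN3 and SH3GL2) entered the test only through their counts in the panobinostat arm, and had to be high there to be tested at all. Of all 1754 genes that entered that way, 81.2% rose and none fell. The group counts below include them, and are to be read against the 33.7% and 31.5% of all tested genes. Of the 43 vesicle release genes that the vehicle arm alone would have kept, 15 rose, 14 fell and 14 did not pass, with a median of -0.05. Among all 14030 such genes 28.4% rose and 36.1% fell. The shares of these 43 genes are near those of all genes.

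**Figure D1:**
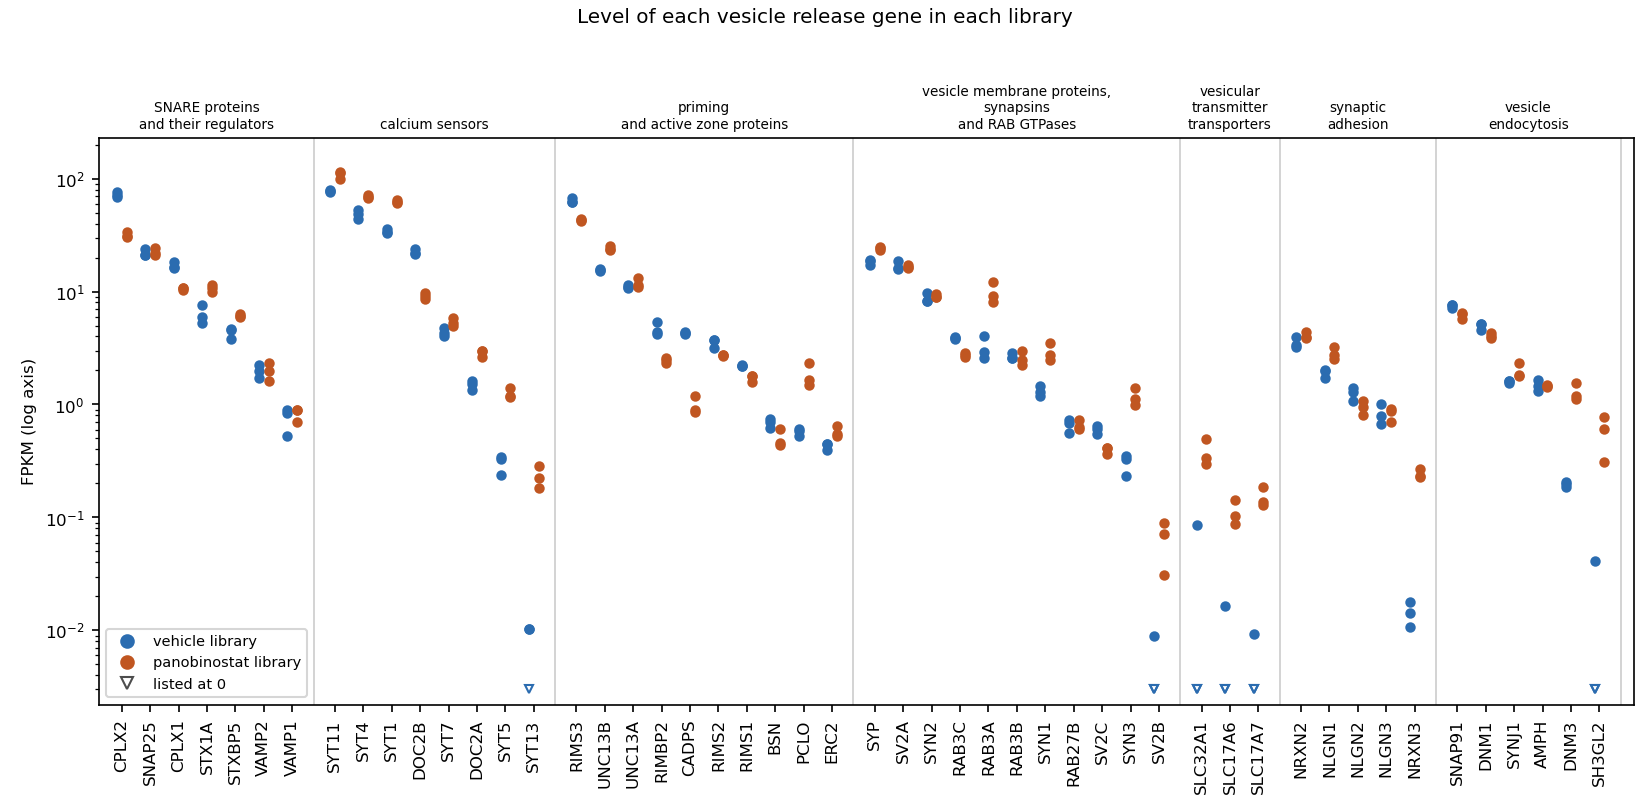
FPKM (log axis) of each of the 50 genes with a row, 1 point per library, in vehicle (blue) and panobinostat (orange), grouped by role. Open triangles mark a gene listed at 0 and may stand for more than 1 library. CPLX2, DOC2B and CADPS lie lower after panobinostat, and NRXN3 lies higher. The transporters, SYT13, SV2B and SH3GL2 have triangles with vehicle and none with panobinostat.

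The summed level of the 50 genes overlapped between the arms. It was 523, 486 and 490.1 FPKM in the vehicle libraries and 547, 525 and 513 FPKM in the panobinostat libraries. The same 5 genes, SYT11, CPLX2, RIMS3, SYT4 and SYT1, had the highest vehicle and the highest panobinostat means, and held 59.3% of the sum with vehicle and 59.6% with panobinostat. Their order differed: CPLX2 was the second highest with vehicle and the last of the 5 with panobinostat. In the vehicle arm 12 genes stood at a mean of 10 FPKM or more, 21 at 1 to under 10 and 17 under 1, of which 7 were under 0.1 FPKM. The genes lie on 20 chromosomes.

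Among SNARE proteins and their regulators, the complexins fell, syntaxin 1A and tomosyn rose, and the other SNAREs did not pass. The counts were 2 rose, 2 fell and 3 not passing of 7. CPLX2 (complexin 2, chr5:175796310-175884020 in GENCODE 29 on GRCh38, as are all gene positions below) was measured at 76.5, 68.8 and 72.2 FPKM in vehicle A to C and at 30.7, 30.4 and 33.9 FPKM in panobinostat A to C. CPLX1, its paralog, stood at 18.2, 16.0 and 16.5 FPKM and then 10.4, 10.7 and 10.7 FPKM. Every panobinostat library was below every vehicle library for both, with log2 fold changes of -1.31 ± 0.08 (adjusted p = 2.28e-09) for CPLX2 and -0.78 ± 0.08 (adjusted p = 1.33e-06) for CPLX1. STX1A, the plasma membrane syntaxin that pairs with SNAP25 (chr7:73699206-73719672), went the other way. It had 7.6, 5.3 and 5.96 FPKM with vehicle and 10.8, 11.5 and 9.81 FPKM with panobinostat, a log2 fold change of 0.66 ± 0.12 (adjusted p = 1.38e-04). STXBP5 (tomosyn), which binds syntaxin and competes with the vesicle SNARE, rose by 0.38 ± 0.09 on the log2 scale, from a mean of 4.35 to 6.15 FPKM.

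SNAP25, which supplies a plasma membrane part of the bundle (chr20:10218830-10307418), was at 23.7, 21.2 and 20.9 FPKM with vehicle and 24.2, 22.1 and 20.9 FPKM with panobinostat. Its arms overlapped, with a log2 fold change of -0.08 ± 0.08 (adjusted p = 0.366) whose sign turned with library-size and upper-quartile scaling and on FPKM. VAMP2, the vesicle SNARE of neurons, had 2.25, 1.71 and 1.98 FPKM and then 2.35, 1.96 and 1.63 FPKM, also overlapping. Its log2 fold change was -0.12 ± 0.17 (adjusted p = 0.556), its sign turned with upper-quartile scaling and without panobinostat C, and a coding gene on the same strand overlaps it in GENCODE, so its level is uncertain. VAMP1 had means of 0.752 and 0.833 FPKM with overlapping arms.

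In the calcium-sensing group, 6 of 8 rose, 1 fell and 1 did not pass, with a median log2 fold change of 0.585, where 33.7% of all tested genes rose and 31.5% fell. Among those that rose, SYT13 (log2 fold change 4.62) entered the test only through the panobinostat arm, and both the count and the median include it. Among all genes that the vehicle arm alone would keep, 28.4% rose and 36.1% fell. Synaptotagmins are vesicle proteins with paired calcium-binding C2 domains, although SYT4 and SYT11 lack the residues for full calcium binding and SYT13 does not bind calcium. SYT11 was the most abundant of all 50 genes. It had 79.5, 76.4 and 78.2 FPKM with vehicle and 115, 112 and 98.7 FPKM with panobinostat, a log2 fold change of 0.37 ± 0.07 (adjusted p = 4.99e-04). SYT1 (chr12:78863993-79452008) had 33.7, 35.5 and 33.1 FPKM and then 65.2, 62.4 and 60.6 FPKM, a log2 fold change of 0.77 ± 0.07 (adjusted p = 2.11e-07). SYT4 had 52.2, 48.3 and 44.0 FPKM and then 71.2, 66.9 and 68.0 FPKM, a log2 fold change of 0.40 ± 0.08 (adjusted p = 2.64e-04). For these abundant synaptotagmins the panobinostat libraries were all above the vehicle libraries.

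SYT5 and SYT13 began low. SYT5 was at 0.327, 0.24 and 0.341 FPKM with vehicle and 1.41, 1.17 and 1.19 FPKM with panobinostat, 3.82-fold higher. SYT13 was listed at 0, 0.0103 and 0.0102 FPKM and then 0.288, 0.182 and 0.223 FPKM. Its counts over the arms were 2 and 59, a depth-scaled count ratio of 28.7 with a 95% interval of 7.6 to 243 for counting error only. SYT7, a high-affinity sensor linked to sustained release, had 4.74, 4.05 and 4.28 FPKM and then 5.82, 5.23 and 4.95 FPKM. SYT7 did not pass (log2 fold change 0.18 ± 0.09, adjusted p = 0.104) and its CPM arms overlapped, but its adjusted p was 0.0158 with library-size scaling and 0.00824 with upper-quartile scaling.

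The DOC2 genes, soluble calcium sensors tied to spontaneous release, moved in opposite directions. DOC2B (chr17:142789-181636) had 23.6, 22.1 and 21.6 FPKM with vehicle and 9.04, 8.52 and 9.62 FPKM with panobinostat, a log2 fold change of -1.42 ± 0.08 (adjusted p = 9.21e-10). DOC2A, at a far lower level, had 1.51, 1.34 and 1.62 FPKM and then 2.64, 2.97 and 2.98 FPKM, a log2 fold change of 0.83 ± 0.12 (adjusted p = 1.63e-05). Neither gene's arms overlapped, and DOC2B was still above DOC2A in every panobinostat library.

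Among priming and active zone proteins, 2 of 10 tested rose, 6 fell and 2 did not pass, with a median log2 fold change of -0.49. Of all tested genes 33.7% rose and 31.5% fell, and of those the vehicle arm alone would keep, 28.4% and 36.1%. The active zone companions described below did not mostly fall: 8 rose, 7 fell and 4 did not pass. CADPS (chr3:62398346-62875389) had the steepest fall of all the vesicle release genes. It stood at 4.23, 4.35 and 4.28 FPKM with vehicle and 0.901, 0.86 and 1.19 FPKM with panobinostat, a log2 fold change of -2.22 ± 0.11 (adjusted p = 5.18e-10). RIMS3, a short RIM protein, had 66.7, 62.1 and 61.8 FPKM and then 43.2, 44.1 and 42.4 FPKM, 1.59-fold lower. RIMBP2, which links RIMs to calcium channels, had 5.38, 4.23 and 4.37 FPKM and then 2.59, 2.35 and 2.46 FPKM, 2.04-fold lower. All panobinostat libraries lay below all vehicle libraries for these genes. RIMS1 and RIMS2, the full-length RIM scaffolds, fell by 0.48 and 0.50 on the log2 scale, from means of 2.21 and 3.55 FPKM to 1.71 and 2.72 FPKM. BSN (bassoon) fell by 0.58 ± 0.14, from a mean of 0.689 to 0.500 FPKM, and its call was lost with limma on log2(FPKM + 1) without a filter (adjusted p = 0.0945).

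PCLO (piccolo), the other giant scaffold of the active zone and a relative of bassoon, rose. It had 0.603, 0.525 and 0.587 FPKM with vehicle and 2.32, 1.66 and 1.5 FPKM with panobinostat, 2.94-fold higher (adjusted p = 2.15e-07). UNC13B, a priming factor of the Munc13 family, had 15.7, 15.3 and 15.6 FPKM and then 23.3, 23.9 and 25.4 FPKM, a log2 fold change of 0.53 ± 0.07 (adjusted p = 9.28e-06). Its paralog UNC13A had 11.5, 10.7 and 10.9 FPKM and then 13.3, 11.5 and 11 FPKM. UNC13B was higher in every panobinostat library, whereas the CPM arms of UNC13A overlapped. The UNC13A log2 fold change was 0.00 ± 0.08 (adjusted p = 0.999), with a sign that turned between settings. ERC2, an active zone scaffold, had means of 0.430 and 0.572 FPKM with arms that did not overlap, and did not pass (adjusted p = 0.149, and 0.0401 with upper-quartile scaling).

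**Figure D2:**
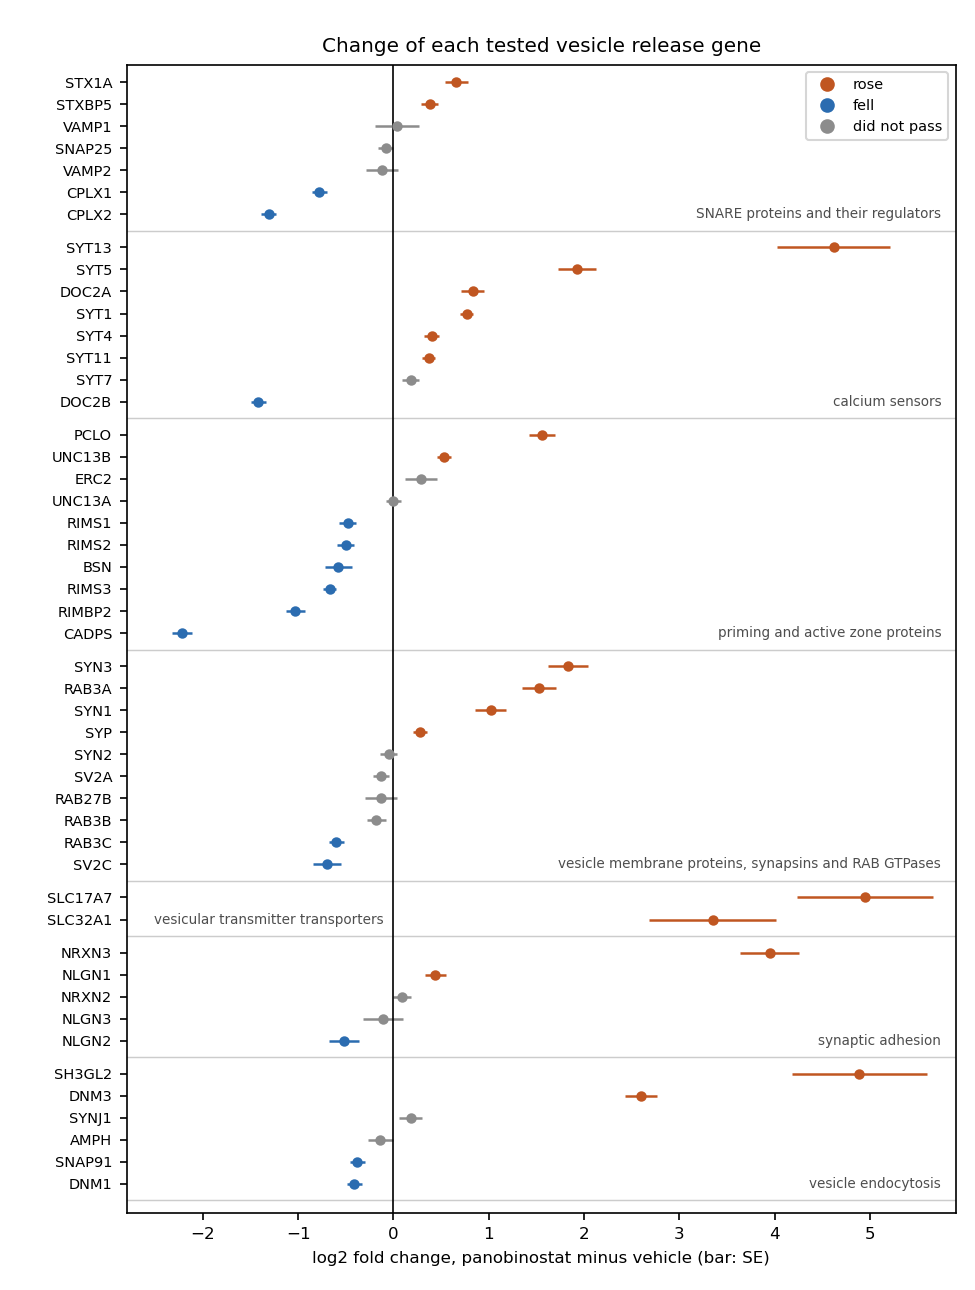
Log2 fold change (panobinostat minus vehicle) of the 48 tested genes, ordered within each role, with bars of 1 standard error. Of them 20 rose (orange), 14 fell (blue) and 14 did not pass (grey); calcium sensors lie mostly right of 0, and priming and active zone proteins mostly left.

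Vesicle membrane proteins, synapsins and RAB GTPases split: 4 of 10 tested rose, 2 fell and 4 did not pass. SYP (synaptophysin), an abundant vesicle membrane protein, had 18.7, 17.2 and 19.1 FPKM with vehicle and 23.2, 24.3 and 24.7 FPKM with panobinostat, a log2 fold change of 0.28 ± 0.07 (adjusted p = 0.00319). SV2A, a vesicle glycoprotein that binds the antiepileptic levetiracetam, had 18.5, 15.7 and 16.3 FPKM and then 16.4, 16.3 and 17.1 FPKM. SV2A overlapped between arms and did not pass (log2 fold change -0.13 ± 0.08, adjusted p = 0.157), and its sign turned with upper-quartile scaling. SV2C had 0.646, 0.604 and 0.551 FPKM and then 0.415, 0.364 and 0.416 FPKM, 1.62-fold lower without overlap. SV2B was too low to be tested, with 2 counts over the vehicle libraries and 37 over the panobinostat libraries, a depth-scaled count ratio of 18.0 (95% counting interval 4.64 to 154).

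Synapsins tether vesicles to each other in the reserve pool. SYN1, whose promoter holds the RE1 letters shown above (gene at chrX:47571898-47619943), had 1.29, 1.2 and 1.45 FPKM with vehicle and 3.48, 2.5 and 2.72 FPKM with panobinostat. SYN3 had 0.347, 0.329 and 0.234 FPKM and then 1.41, 1.11 and 0.99 FPKM. SYN1 rose 2.03-fold (adjusted p = 6.56e-05) and SYN3 3.56-fold (adjusted p = 2.92e-06), with no overlap of arms. SYN2, the most abundant synapsin, had 9.8, 8.21 and 8.23 FPKM and then 8.94, 8.89 and 9.48 FPKM. Its arms overlapped (log2 fold change -0.05 ± 0.09, adjusted p = 0.63), and its sign turned with library-size and upper-quartile scaling, on FPKM and without vehicle A. UNC13A, whose window also holds both RE1 arms, did not pass, as given above.

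RAB3 proteins are the small GTPases of the vesicle surface that bind RIM. RAB3A had 4.0, 2.58 and 2.89 FPKM with vehicle and 12.2, 8.08 and 9.22 FPKM with panobinostat, 2.90-fold higher (adjusted p = 2.42e-06). RAB3B had 2.6, 2.58 and 2.86 FPKM and then 2.98, 2.49 and 2.24 FPKM. RAB3B overlapped between arms and did not pass (adjusted p = 0.141), but fell without panobinostat A (log2 fold change -0.29, adjusted p = 0.0118). RAB3C fell 1.51-fold, from a mean of 3.85 to 2.75 FPKM, with no overlap. RAB27B, a GTPase of secretory granules, had means of 0.656 and 0.654 FPKM and did not pass. The vehicle means of RAB3A, RAB3B and RAB3C were 3.16, 2.68 and 3.85 FPKM, and with panobinostat RAB3A was above both others in every library.

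The 3 listed vesicular transporters that load glutamate or GABA were close to absent with vehicle, and higher in each panobinostat library. SLC17A8, a glutamate transporter that is not on the list, had a vehicle mean of 1.89 FPKM and is described below. SLC17A7, the glutamate transporter VGLUT1, was listed at 0, 0.0093 and 0 FPKM with vehicle and 0.136, 0.185 and 0.128 FPKM with panobinostat, from 1 and 43 counts in all. SLC32A1, the GABA and glycine transporter VGAT, was listed at 0, 0 and 0.0859 FPKM and then 0.492, 0.336 and 0.299 FPKM, from 4 and 45 counts. Depth-scaled count ratios were 41.8 (95% counting interval 7.12 to 1690.4) for SLC17A7 and 10.9 (3.99 to 41.9) for SLC32A1, and both rose (adjusted p = 2.24e-05 and 4.70e-04). Both entered the test only through their counts in the panobinostat arm, so nothing is read from these adjusted p-values. SLC17A6 (VGLUT2) was not tested, with 1 and 23 counts and a ratio of 22.4 (3.63 to 922). Even with panobinostat all 3 transporters stayed below 0.5 FPKM, while SYT11 stood at 98.7 FPKM or more.

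Among the adhesion proteins that join the sides of a synapse, NRXN3 and NLGN1 rose, NLGN2 fell, and NRXN2 and NLGN3 did not pass. NRXN3, a presynaptic neurexin, had 0.018, 0.0144 and 0.0107 FPKM with vehicle and 0.269, 0.234 and 0.227 FPKM with panobinostat, a log2 fold change of 3.95 ± 0.31 (adjusted p = 4.88e-08) from 11 and 179 counts. It entered the test only through the panobinostat arm, so nothing is read from that adjusted p. NRXN2 had 3.96, 3.26 and 3.34 FPKM and then 3.94, 4.36 and 3.84 FPKM. The arms of NRXN3 were far apart and those of NRXN2 overlapped (adjusted p = 0.382, and 0.0395 with upper-quartile scaling). NLGN1, the neuroligin of excitatory synapses, rose by 0.44 ± 0.11 on the log2 scale, from a mean of 1.91 to 2.83 FPKM. NLGN2, that of inhibitory synapses, fell by 0.52 ± 0.16 (adjusted p = 0.0115), from 1.25 to 0.942 FPKM. The NLGN2 call was lost with upper-quartile scaling (adjusted p = 0.052), without panobinostat B (adjusted p = 0.0657) and with limma on FPKM (adjusted p = 0.0981 to 0.117). NLGN3 had means of 0.821 and 0.828 FPKM with overlapping arms.

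Vesicle endocytosis genes also split, with 2 of 6 higher, 2 lower and 2 not passing. DNM3, a dynamin that cuts vesicles from the membrane, had 0.204, 0.197 and 0.185 FPKM with vehicle and 1.55, 1.2 and 1.12 FPKM with panobinostat, 6.06-fold higher (adjusted p = 6.54e-09). SH3GL2 (endophilin A1), which bends membrane and recruits synaptojanin, was listed at 0, 0 and 0.0412 FPKM and then 0.611, 0.782 and 0.307 FPKM, from 2 and 71 counts. The SH3GL2 depth-scaled count ratio was 34.5 (95% counting interval 9.22 to 291, adjusted p = 2.51e-05), and its window carries the CRE letters shown above. SH3GL2 entered the test only through the panobinostat arm, so nothing is read from that adjusted p. DNM1, the main neuronal dynamin, fell by 0.41 ± 0.08 on the log2 scale (mean 4.97 to 4.06 FPKM), and SNAP91, a clathrin adaptor, by 0.38 ± 0.08 (7.46 to 6.20 FPKM). Neither pair of arms overlapped. AMPH (amphiphysin) had 1.32, 1.47 and 1.66 FPKM and then 1.45, 1.48 and 1.43 FPKM. SYNJ1 (synaptojanin 1), which strips phosphoinositides and helps shed the clathrin coat, had 1.61, 1.56 and 1.63 FPKM and then 2.31, 1.77 and 1.81 FPKM. AMPH and SYNJ1 overlapped between arms in CPM and did not pass (adjusted p = 0.368 and 0.211), and SYNJ1 passed with upper-quartile scaling (adjusted p = 0.0322).

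Across the whole table, genes with a low vehicle level mostly rose and abundant genes more often fell. The vesicle release genes were counted in the same ranges of vehicle level. The 5 tested under 0.1 FPKM are those named above that entered through the panobinostat arm only. Entry by that arm favoured a rise, so nothing is read from the rise of these 5. Of all tested genes in that range 93.9% rose. Of the 10 at 0.1 to under 1 FPKM, 4 rose and 2 fell, against 49.9% and 9.37% of all genes. Of the 21 at 1 to under 10 FPKM, 6 rose and 8 fell, against 29.1% and 31.3%. Of the 12 at 10 FPKM or more, 5 rose (SYT1, SYT4, SYT11, UNC13B and SYP) and 4 fell (CPLX1, CPLX2, DOC2B and RIMS3), against 18.3% and 52.1%. The vehicle level is itself 1 side of the change, so part of this relation is built in.

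**Figure D3:**
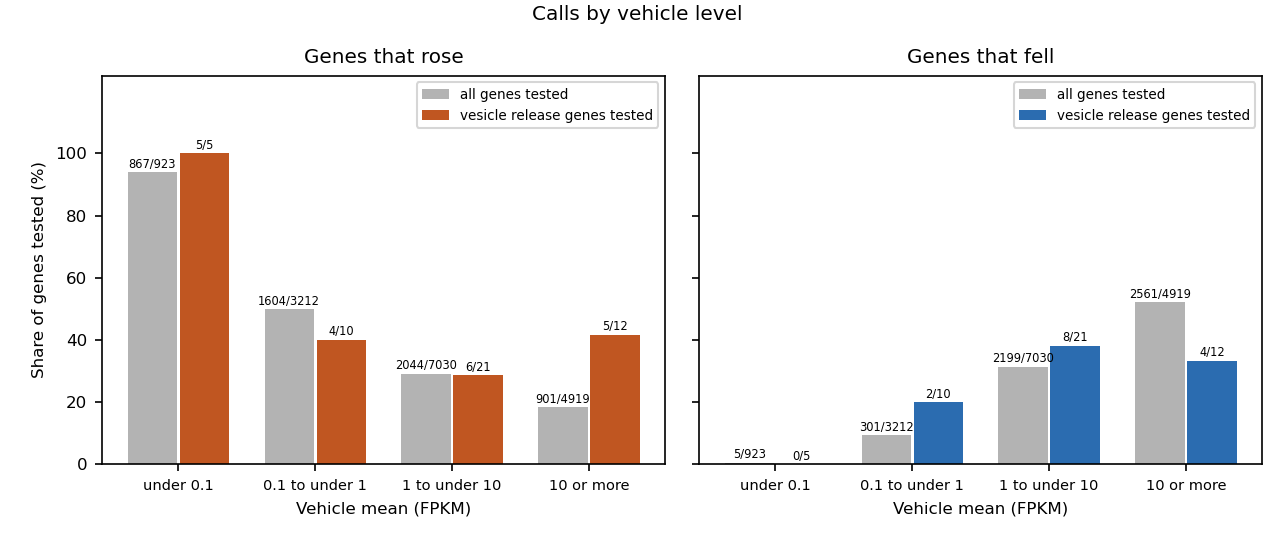
Percent of tested genes that rose or fell by mean vehicle FPKM, for the vesicle release genes (5, 10, 21 and 12 genes per bin) and for all genes. In all genes the share that rose drops from 93.9% under 0.1 FPKM to 18.3% at 10 FPKM or more, and the share that fell goes from 0.542% to 52.1%.

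Each gene's share of the summed FPKM of its listed family members was compared for 33 genes in 12 families, counting only the genes of the list. The arms did not overlap for 29 shares in 11 families, all but the VAMP family, where single-gene levels did not overlap for 68.8% of all tested genes. Each of those 29 had an exact permutation p = 0.1 (two-sided), the smallest that 3 against 3 libraries can give, and 0.114 after Benjamini-Hochberg adjustment over the 33, so none can pass 0.05. Shares within a family sum to 100% and are not independent of each other. RAB3A made up 38.6%, 28.4% and 30.1% of the summed RAB3A, RAB3B and RAB3C level with vehicle and 67.5%, 61.3% and 64.8% with panobinostat. RAB3C went from 39.9% ± 3.52 to 18.4% ± 2.17 (SD, n = 3). RAB3A thus became the larger part of the sum of the listed RAB3 genes in each panobinostat library. RAB3D, which is not on the list and not in that sum, had means of 7.20 FPKM with vehicle and 11.1 FPKM with panobinostat. These were above the RAB3A means of 3.16 and 9.83 FPKM.

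DNM3 went from 3.79% ± 0.307 to 24% ± 2.09 of the summed DNM1 and DNM3 level, and DOC2A from 6.24% ± 0.646 to 24% ± 1.64 of DOC2. SYN2 went from 84.3% ± 1.34 to 69.2% ± 3.97 of the synapsins, as SYN1 went from 12.7% to 21.9% and SYN3 from 2.92% to 8.86%. NLGN1 went from 48.1% ± 5.27 to 61.5% ± 3.20 of the listed neuroligins. UNC13B went from 58.4% ± 0.635 to 67.0% ± 3.04 of UNC13A and UNC13B, and CPLX1 from 18.9% ± 0.302 to 25.1% ± 1.03 of the complexins. Among the listed synapsin, DOC2 and dynamin genes, the most abundant paralog with vehicle was still the most abundant with panobinostat, at a smaller share. DNM2, a dynamin that is not on the list, had means of 12.2 FPKM with vehicle and 12.5 FPKM with panobinostat, above DNM1 in both arms. Shares of the listed RIMS and SV2 genes moved little, with RIMS3 at 91.7% and 90.7% and SV2A at 96.5% and 97.3%. These sums leave out RIMS4 and NLGN4X, which are not on the list. RIMS4 had means of 41.8 FPKM with vehicle and 36.2 FPKM with panobinostat, and NLGN4X of 8.09 and 4.24 FPKM.

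**Figure D4:**
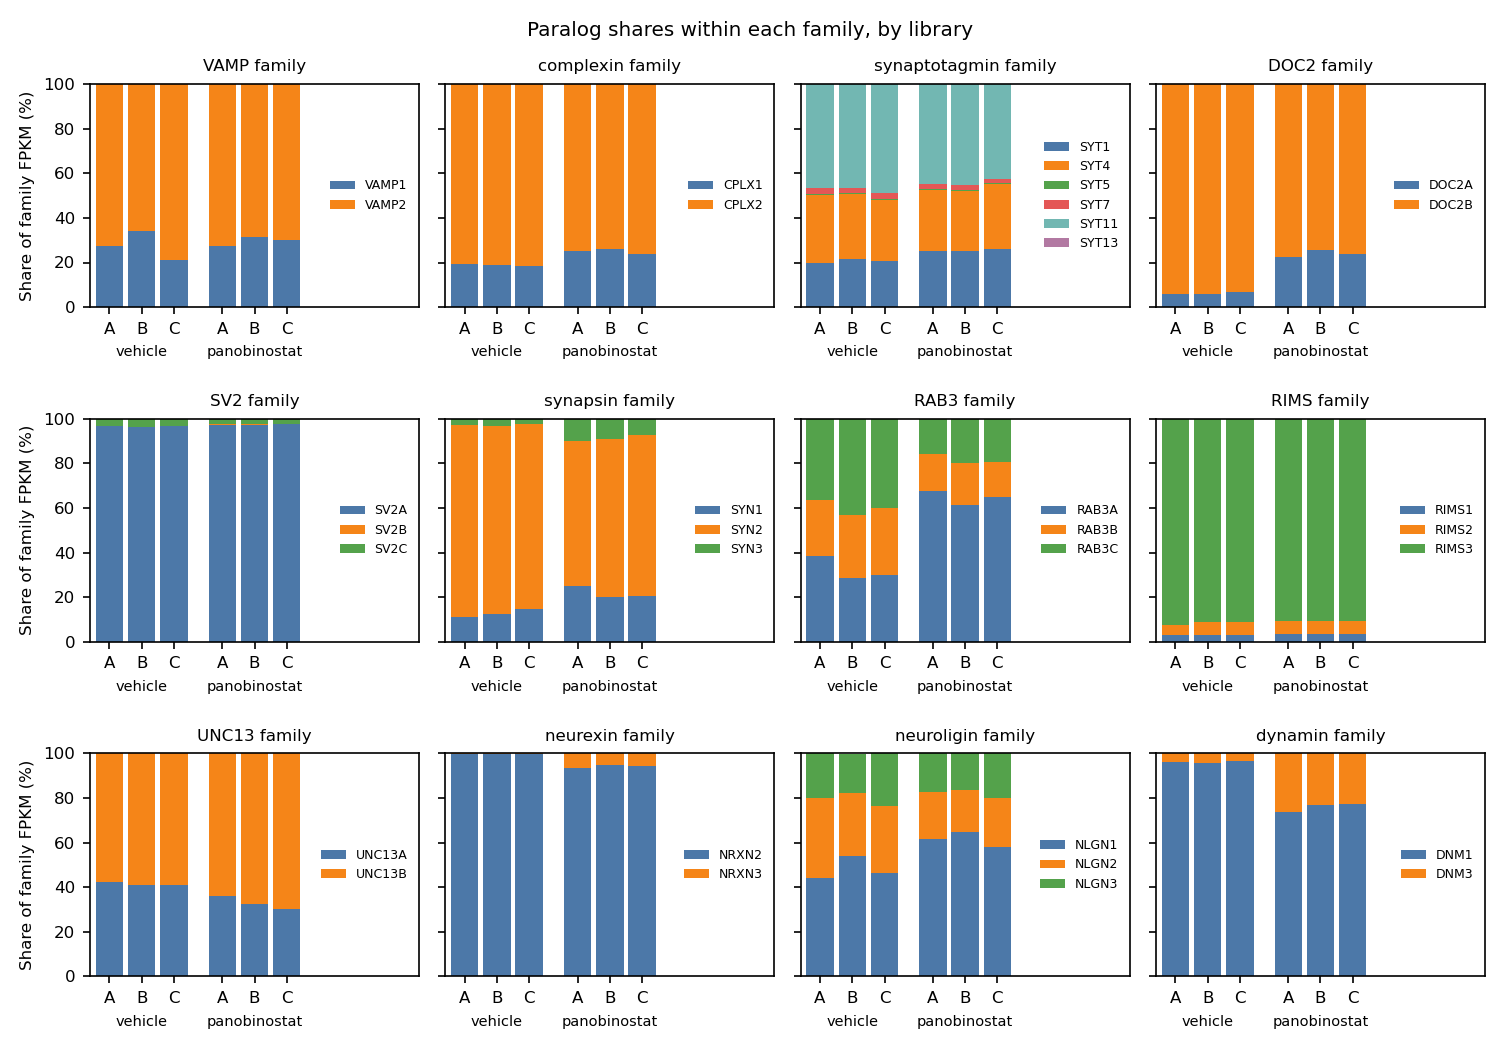
Share (%) of each listed paralog in the summed FPKM of its listed family members, 1 stacked bar per library, for 12 families. RAB3A grows from 32.4% to 64.5% on average and DNM3 from 3.79% to 24%, while the RIMS and SV2 bars look alike across libraries.

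A wider list of 123 genes of the same steps, none of them among the 52 and also drawn up with earlier results known, was read beside them. Of these companion genes 115 had a row and 110 were tested: 49 rose, 31 fell and 30 did not pass, against 33.7% higher and 31.5% lower over all genes tested, with a median log2 fold change of 0.11 against 0.01. The count that fell was 15 to 19 with upper-quartile scaling or limma on FPKM. SNARE companions split 7 higher, 6 lower and 7 not passing, and active zone companions 8, 7 and 4. The calcium-sensing companions split 10, 4 and 4, the vesicle companions 9, 4 and 5, the adhesion companions 5, 3 and 2, and the endocytosis companions 10, 7 and 8. Of the 103 companions that the vehicle arm alone would keep, 42 rose and 31 fell, against 28.4% and 36.1% of all such genes.

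The companions named here are up to 3 per list with the greatest changes, and several left very low vehicle levels. STX3, a syntaxin of apical and sensory release, went from 0.0600 ± 0.0136 to 2.97 ± 0.256 FPKM (log2 fold change 5.48 ± 0.20). SYTL2, a RAB27-binding protein of granules, went from 0.0260 to 1.81 FPKM, and its relative SYTL3 from 3.83 to 16.8 FPKM. SLC17A8, the glutamate transporter VGLUT3, went from 1.89 ± 0.274 to 11.3 ± 1.28 FPKM, and was above SLC17A6 and SLC17A7 in every library. SYNPR (synaptoporin) went from 0.0285 to 1.21 FPKM and SYNGR3 from 0.111 to 1.54 FPKM, both relatives of synaptophysin that stayed far below SYP. In the active zone list APBA2, a Munc18-binding adaptor, fell from 26.0 to 9.20 FPKM, while PPFIA4 rose from 0.556 to 1.31 FPKM and LIN7B from 4.64 to 8.84 FPKM. Among postsynaptic adhesion genes LRRTM4, a neurexin or heparan sulfate proteoglycan ligand, rose from 0.361 to 6.36 FPKM and CLSTN3 from 1.05 to 5.34 FPKM, while LRRTM2 fell from 1.06 to 0.242 FPKM. SH3GL3, the endophilin next to SH3GL2, rose from 0.0785 to 1.15 FPKM, and SYNJ2 from 0.668 to 2.32 FPKM. SYT2, STXBP3 and STON1 rose as well, by 2.57, 0.79 and 2.33 on the log2 scale.

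Promoter base composition was compared as a description. The median GC content of the windows was 58.3% for all 27305 genes and 68.8% for the 41 vesicle release genes with a window. It was 69.7% for the 17 that rose, 63.3% for the 11 that fell and 71.0% for the 11 that did not pass. The median ratio of observed to expected CpG was 0.823, 0.69 and 0.739 in the same order, against 0.563 for all genes. A GC box, CCCGCCC, was found in 32 of the 61 windows and in 33.1% of all windows. A TATA element, TATAAA, was found in the window of SV2B and in 11.5% of all windows.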

How the data were processed

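RNA sequencing covered 6 libraries, 3 per arm, all from total RNA. Per the submitters' processing notes, reads were aligned with Novoalign 2.8 to hg38 and counted with featureCounts 1.5.1. Per the file headers, the deposited counts are whole reads per Ensembl 84 gene, counted with strand option 2, and the command named 9 alignment files, of which 6 columns are analysed here. The authors also deposited FPKM per gene, whose making was not given in the sources used here. Symbols and coordinates came from GENCODE 29 on GRCh38. Members, companion genes and marker lists were chosen with earlier results of these data known.

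Counts were fitted with edgeR 4.0.16 in R 4.3.3: filterByExpr (0.587 CPM in 3 libraries), TMM scaling, the quasi-likelihood test between arms, and Benjamini-Hochberg adjustment over all 16084 genes. Standard errors are the log2 fold change divided by the root of F. The fitting script was tested on simulated counts. Every gene of the list is accounted for. Per-library values are given for the 20 largest changes past the threshold, for means of 10 FPKM or more in either arm, and for genes that did not pass at 1 FPKM or more. Up to 3 companions per list are named by size of change at a mean of 1 CPM or more. Alternatives were DESeq2 1.42.0, other scalings and filters, limma 3.58.1 on log2(FPKM + 1) and log2(FPKM + 0.1), a replicate block, and each library left out. Count ratios carry exact 95% intervals, and these and the floor of 3 counts cover counting error only.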

Additional observations from a re-analysis of the deposited data

How the results depend on the processing

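Of the 48 tested genes, 33 kept direction and call under every alternative that tested them: 20 that rose, 12 that fell and 1 that did not pass. The 20 include the 5 genes that entered the test only through the panobinostat arm. Stricter filters left most or all of these 5 untested, so nothing is read from their unchanged calls. The number that rose ran from 16 to 24 and the number that fell from 11 to 15 over all alternatives; with 1 library left out they ran from 20 to 21 and from 13 to 15. Library-size, upper-quartile and limma fits raised log2 fold changes by a median per gene, over shared genes, of 0.112, 0.139 and 0.102 to 0.111, and all genes then split 6335 higher to 4046 lower (library size) and 6570 to 3827 (upper quartile), against 5416 to 5066. Companion genes that fell numbered 31, and 19 with upper-quartile scaling, 15 with limma on log2(FPKM + 1), 17 without the filter and 15 on log2(FPKM + 0.1).

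Signs turned only among genes that did not pass. With library-size scaling the log2 fold change was 0.029 for SNAP25, 0.062 for SYN2 and 0.007 for NLGN3. With upper-quartile scaling it was 0.055 for SNAP25, 0.023 for VAMP2, 0.011 for SV2A, 0.089 for SYN2, 0.012 for RAB27B and 0.033 for NLGN3. With limma it was 0.027, 0.027 and 0.028 for SNAP25, 0.056, 0.056 and 0.062 for SYN2, and 0.008 without the filter for NLGN3. UNC13A was at -0.018 with DESeq2 and -0.031 without a filter. Leaving out each library gave -0.18 to 0.19 for VAMP1, -0.24 to 0.008 for VAMP2, -0.077 to 0.051 for UNC13A, -0.1 to 0.022 for SYN2 and -0.24 to 0.074 for NLGN3. Beyond the scaling itself, the cause was not tested.

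Whether letters A to C pair the libraries was not settled: deviations of same-lettered libraries correlated at 0.0815, -0.0213 and 0.104. Vehicle A and vehicle C each correlated best with the panobinostat library of the same letter, but vehicle B correlated best with panobinostat C (0.0469). With the letter as a replicate block 20 of the vesicle release genes rose and 14 fell, 49 and 32 companions did, and UNC13A was at -0.003. Low counts limit the genes under 0.1 FPKM.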
